A study of Rattus norvegicus with 16 samples.

Results

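Cell division genes are described here in the left ventricle of rats after 5/6 nephrectomy (5/6Nx), an operation that removes most of the kidney tissue by excision and is used as a model of chronic kidney disease. They are 50 listed symbols, and a gene was found where a deposited table named its symbol. Where a symbol had several loci, the locus with the highest mean abundance stood for it, and loci that the authors left untested were skipped. Of the 50, 45 had a locus among the 22861 listed, 5 were not found under their symbols (Kif4a, Mki67, Bub1b, Anln and Ect2), and 36 were tested at all 4 weeks. The animals were male Sprague Dawley rats operated at 10 weeks of age on 0.4% Dyets chow, and left ventricles were taken 2, 4, 5 or 7 weeks after 5/6Nx or sham surgery. Each week had its own sham group. There were 8 groups of 2 libraries, and a library mixed tissue of 2 to 3 rats, so animals were not measured singly.

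A cell that divides copies its DNA, condenses its chromosomes, attaches them to a spindle of microtubules, pulls them apart and then splits its cytoplasm. Most genes of the later steps of this cycle are silent in resting cells and are switched on together shortly before mitosis, by complexes that bind 2 short promoter elements, the cell cycle genes homology region (CHR) and the CCAAT box. Genes of DNA replication are switched on earlier, through E2F sites. Adult cardiomyocytes rarely divide, and the ventricle also holds fibroblasts, endothelial cells, macrophages and other cells that can.

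The promoters of the 4 genes called higher at 2 or more weeks (Top2a, Cdk1, Prc1 and Ckap2) are shown with that of the replication gene Mcm5, never called, as examples of the 3 elements that were searched. Each runs 5′ to 3′ on the gene's strand, from 250 bases before to 50 bases after the annotated start, in RefSeq's GRCr8 build. Capitals mark matches on either strand to the CHR (TTTGAA or TTCGAA), the CCAAT box (CCAAT, or ATTGG where it lies on the other strand) and the E2F motif (TTTGGCGC, TTTCCCGC, TTTGCCGC or TTTCGCGC). The stretches are chr10:84473044-84473343 (minus strand) for Top2a, chr20:19265043-19265342 (plus) for Cdk1, chr1:143659231-143659530 (plus) for Prc1, chr16:76541864-76542163 (plus) for Ckap2 and chr19:13488563-13488862 (plus) for Mcm5.
Top2a: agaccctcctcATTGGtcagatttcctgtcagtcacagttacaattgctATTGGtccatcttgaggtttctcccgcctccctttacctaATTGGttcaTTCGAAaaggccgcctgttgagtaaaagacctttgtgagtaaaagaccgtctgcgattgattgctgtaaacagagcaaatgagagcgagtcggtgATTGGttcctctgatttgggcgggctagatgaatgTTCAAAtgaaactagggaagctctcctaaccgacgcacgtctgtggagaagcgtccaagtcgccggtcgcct
Cdk1: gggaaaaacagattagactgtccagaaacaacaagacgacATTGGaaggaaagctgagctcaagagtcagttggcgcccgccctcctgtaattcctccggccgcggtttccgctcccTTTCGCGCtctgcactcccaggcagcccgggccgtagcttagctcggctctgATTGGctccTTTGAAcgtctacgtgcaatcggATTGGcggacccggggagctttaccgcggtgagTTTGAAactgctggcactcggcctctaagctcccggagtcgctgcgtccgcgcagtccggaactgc
Prc1: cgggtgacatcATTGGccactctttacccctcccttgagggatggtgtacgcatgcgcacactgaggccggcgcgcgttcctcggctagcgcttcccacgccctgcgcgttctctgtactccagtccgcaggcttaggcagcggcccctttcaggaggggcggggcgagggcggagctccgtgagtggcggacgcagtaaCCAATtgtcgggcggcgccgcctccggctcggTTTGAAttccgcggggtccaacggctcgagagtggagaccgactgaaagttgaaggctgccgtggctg
Ckap2: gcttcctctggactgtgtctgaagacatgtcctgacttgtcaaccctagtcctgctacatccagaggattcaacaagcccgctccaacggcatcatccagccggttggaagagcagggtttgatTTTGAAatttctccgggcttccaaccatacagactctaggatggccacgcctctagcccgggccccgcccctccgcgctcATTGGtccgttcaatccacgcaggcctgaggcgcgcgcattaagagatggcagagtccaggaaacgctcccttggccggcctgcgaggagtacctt
Mcm5: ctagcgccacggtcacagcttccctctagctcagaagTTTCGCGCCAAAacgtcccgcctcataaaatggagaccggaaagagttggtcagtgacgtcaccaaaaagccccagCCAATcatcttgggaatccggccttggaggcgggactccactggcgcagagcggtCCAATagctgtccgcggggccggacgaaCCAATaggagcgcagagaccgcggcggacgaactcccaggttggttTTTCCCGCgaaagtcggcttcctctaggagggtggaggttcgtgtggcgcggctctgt

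A promoter of this length was matched for 37 of the 45 genes. A CHR stood in 22 of the 37 (59.5%), against 19.5% of all 27457 promoters searched. A CCAAT box stood in 28 of the 37 (75.7%), against 37.7% of all promoters, and 20 of them (54.1% of the 37) had 2 or more, against 11.5%. Both elements together stood in 19 of the 37 (51.4%), against 7.83% of all promoters. The elements were divided by role. Of the 30 genes of mitosis and cytokinesis, 19 had both elements and 2 had an E2F motif, while of the 7 genes of replication and DNA precursor supply 0 had both and 5 had an E2F motif. The CCAAT box alone differed less, with 24 of the 30 and 4 of the 7. The E2F motif stood in 2.25% of all promoters. The 12 matched genes called at 1 or more weeks held a CCAAT box in 12 and both elements in 11, the exception being Cdca3, and the 25 never called held both in 8. The 25 include all 7 genes of replication and DNA precursor supply, so this contrast partly repeats the division by role. In Prc1 the CHR began 18 bases and the nearer CCAAT box 50 bases before the start. In Top2a the CHR nearest the start began 22 bases and the nearest CCAAT box 57 bases before it. Cdk1 had an E2F motif besides 2 CHR and 3 CCAAT matches, and was the 1 called gene of the 12 with an E2F motif. A match is a description of these letters and not a shown binding site.

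**Figure D1:**
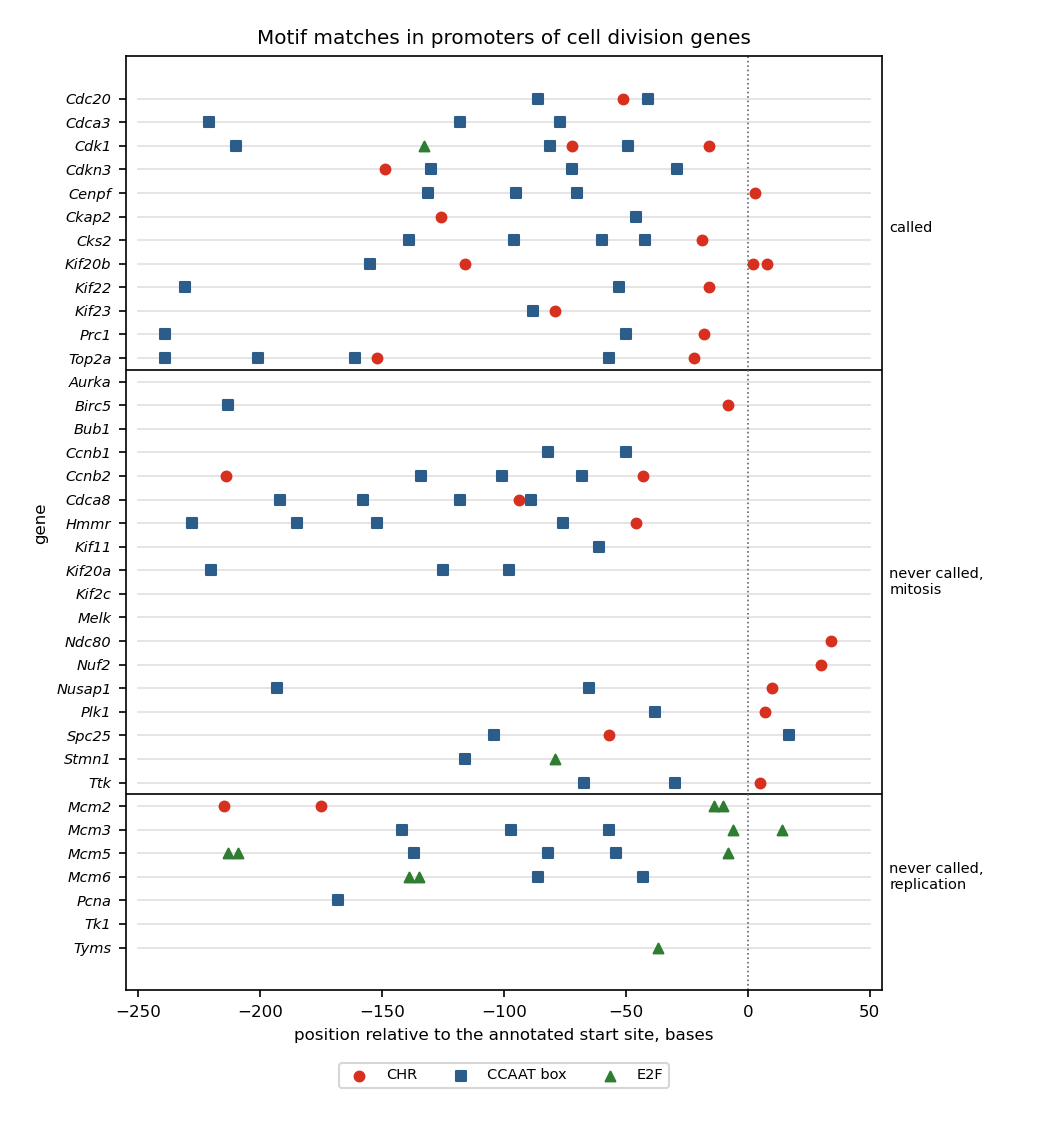
Matches to the CHR (circles), the CCAAT box (squares) and the E2F motif (triangles) in the promoters of 37 cell division genes; the x axis is the distance in bases of the first matched base from the annotated start, and rows are genes. CHR and CCAAT matches fill the rows of the 12 called genes, 11 of which hold both, and E2F matches lie mostly in the 7 rows of replication and precursor genes, 5 of which hold one.

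Depth was 44.5 to 61.8 M reads a library (M stands for mega), apart from pool 2 of 5/6Nx at week 7, which held 23.6 M, and 94.0% to 94.9% of reads were mapped. The share of bases at quality 30 or above was 93.2% to 94.5% at weeks 2 to 5 and 96.0% to 96.2% at week 7. The deposited tables give 1 abundance per group and locus, taken as FPKM (sequenced fragments divided by transcript length and by library size), and none per library, so whether the pools of 2 groups overlap cannot be seen. Log2 fold changes are 5/6Nx over sham, with a standard error derived from the deposited p. A gene is called where the authors' deposited table marks it significant (q up to 0.05). In the week 7 table, the authors' statistic had the other sign than the ratio of the named columns at all 13645 comparable loci. Directions at that week follow the column names and would all turn if the names were exchanged. Some values carry further doubts. The locus of Mcm6 also carries Dars, and 2 of the 45 genes in all share a locus. The loci of Ccnb2 and Racgap1 lie on another chromosome than those genes do in RefSeq's GRCr8 table, so they may hold reads of a copy. In whole tissue, fewer cells of a type and less RNA per cell cannot be told apart.

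Across the genes, 5/6Nx lay above sham at every week, and the gap was widest at week 5. Of the tested genes, 37 of 41 lay above sham at week 2, 42 of 45 at week 4, 42 of 43 at week 5 and 33 of 38 at week 7. Among all tested loci 45.1%, 46.3%, 50.4% and 48.9% lay above sham. The median log2 fold change of the genes was 0.52 at week 2, 0.82 at week 4, 1.35 at week 5 and 0.87 at week 7, against -0.02, -0.02, 0.00 and -0.01 over all tested loci. Most of the genes were scarce, with a median sham level of 1.38, 1.44, 1.43 and 1.39 FPKM. Among those of mean FPKM from 0.5 to 10, 2 of 36, 11 of 39, 29 of 39 and 17 of 34 were at least 2-fold higher at the 4 weeks. Of all loci of that level, 1.38%, 1.63%, 2.34% and 6.12% were.

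Called genes were all higher in 5/6Nx, and 0 were called lower at any week. At week 2, 0 of 41 were called, as were 0% of the 14115 loci tested, and the smallest q of these genes in the authors' deposited table was 0.596. At week 4, 4 of 45 (8.89%) were called, beside 0.177% of 14085 loci called higher. At week 5, 14 of 43 (32.6%) were called, beside 0.396% of 13627 loci. At week 7, 4 of 38 (10.5%) were called, beside 1.43% of 13665 loci. The genes were chosen with earlier results of these data known, so these shares describe the list and are not a test. Called lower were 0.156%, 0.154% and 0.315% of all tested loci at weeks 4, 5 and 7. By level alone, 0.231%, 0.403% and 1.09% of loci of mean FPKM from 0.5 to 10 were called higher at those weeks. With an unadjusted p under 0.05 in the authors' deposited tables, 7, 27, 32 and 18 genes were higher at the 4 weeks and 0 lower, beside 1.84%, 3.28%, 3.07% and 6.3% of all tested loci that were higher. In all, 16 genes were called at 1 or more weeks: 2 at 3 weeks (Prc1 and Top2a), 2 at 2 weeks (Cdk1 and Ckap2) and 12 at 1 week.

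**Figure D2:**
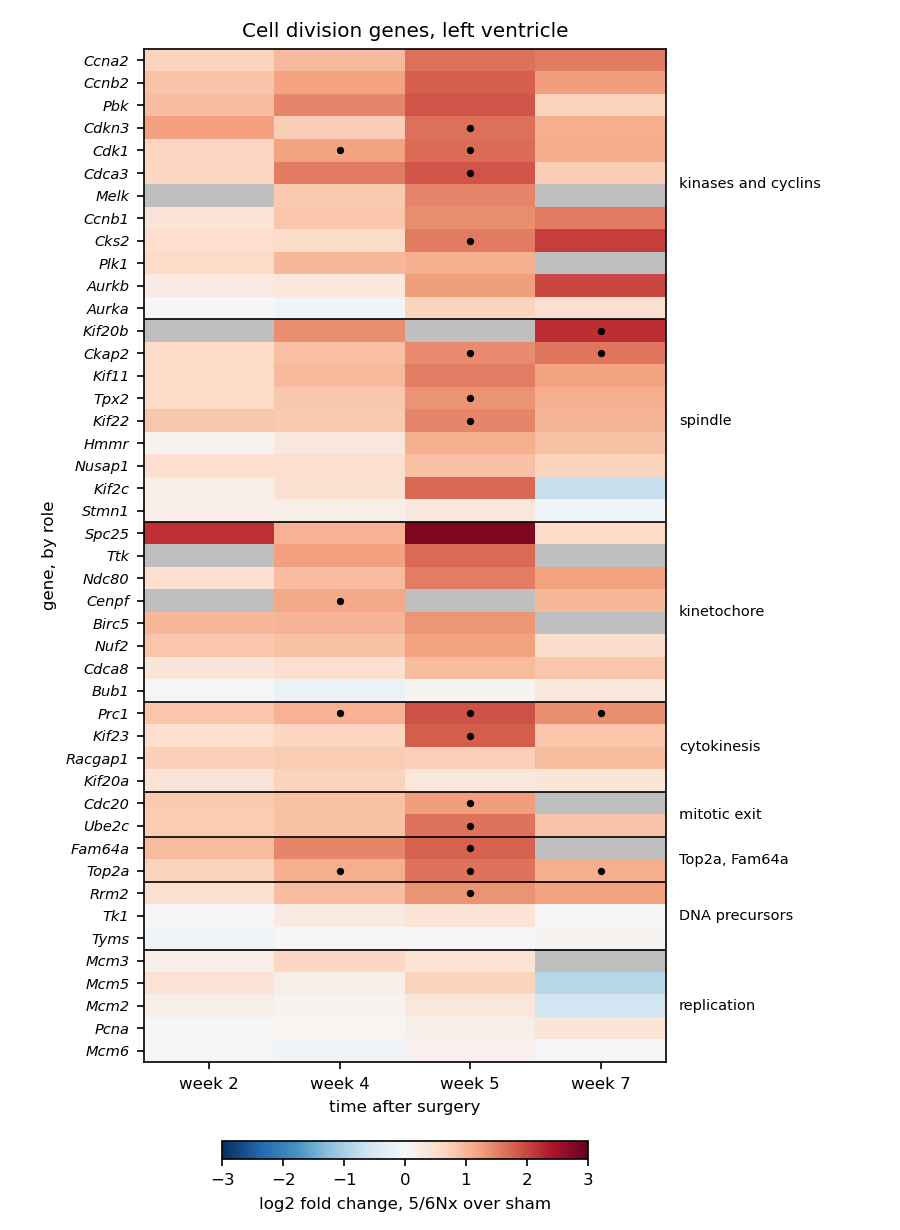
Log2 fold changes (5/6Nx over sham, colour scale) of the 45 cell division genes in rows, ordered by role, at the 4 weeks in columns; dots mark calls in the authors' deposited tables and grey cells were not tested. Red deepens towards week 5, where 22 of the 29 genes of mitosis and cytokinesis tested at all weeks had their largest fold change, and the replication rows at the bottom stay pale; week 7 follows the column names.

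Cytokinesis, the splitting of the cytoplasm, held the gene called most often beside Top2a. Prc1 (XLOC_000555, rn5 chromosome 1, 143039949 to 143062064) encodes the protein that bundles microtubules between the parting chromosomes. Its sham level was 1.83, 2.21, 1.22 and 2.49 FPKM at weeks 2, 4, 5 and 7. Its 5/6Nx level was 3.25, 4.54, 4.61 and 6.57 FPKM. Every 5/6Nx group lay above every sham group of Prc1, weeks taken from separate tables. The log2 fold changes were 0.83 ± 0.28, 1.04 ± 0.26, 1.92 ± 0.47 and 1.40 ± 0.37, with q of 0.596, 0.0185, 0.0114 and 0.0140 in the authors' deposited tables. Kif23, a kinesin of the same midzone bundle, had 0.992, 1.31, 0.551 and 1.40 FPKM in sham and 1.41, 2.06, 1.93 and 2.50 FPKM in 5/6Nx. It was called at week 5 (1.81 ± 0.45), the week of its lowest sham level, and stood at 0.50 ± 0.33, 0.65 ± 0.26 and 0.84 ± 0.39 at the other weeks. Racgap1, the partner of that kinesin, was not called, with log2 fold changes from 0.71 to 0.95. Kif20a, another midzone kinesin, ran from 0.31 to 0.68.

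Top2a and Fam64a, placed in no other role, were both called at week 5. Top2a (XLOC_004572, rn5 chromosome 10, 86698825 to 86729517) encodes the topoisomerase that untangles replicated chromosomes. Its sham level was 1.31, 1.43, 0.704 and 2.06 FPKM, and its 5/6Nx level was 2.10, 3.08, 2.19 and 4.40 FPKM. The 5/6Nx level at week 5 was close to that at week 2, while the sham level was the lowest of the 4. The log2 fold changes were 0.67 ± 0.26, 1.10 ± 0.27, 1.64 ± 0.40 and 1.10 ± 0.32, and q in the authors' deposited tables was 0.957, 0.0185, 0.0114 and 0.0445. Fam64a, named Pimreg in newer annotations and linked to proliferating cells, rose from 1.41 to 4.82 FPKM at week 5 (1.78 ± 0.44). It stood at 0.95 ± 0.48 and 1.46 ± 0.42 at weeks 2 and 4, not called, and was not tested at week 7.

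Kinases, cyclins and their regulators drive entry into mitosis. Of the 12, 11 of 11 tested lay above sham at week 2, 11 of 12 at week 4, 12 of 12 at week 5 and 10 of 10 at week 7, with median log2 fold changes of 0.62, 0.90, 1.60 and 1.18. Called were 0, 1, 4 and 0, beside 0%, 0.177%, 0.396% and 1.43% of all tested loci called higher. Cdk1 (XLOC_012495, rn5 chromosome 20, 22694821 to 22709859), the kinase that starts mitosis, had 2.63, 3.34, 3.02 and 2.32 FPKM in sham and 4.15, 7.68, 9.74 and 5.03 FPKM in 5/6Nx. It rose at weeks 4 (1.20 ± 0.30) and 5 (1.69 ± 0.42), with q of 0.0185 and 0.0114 in the authors' deposited tables. At weeks 2 and 7 it stood at 0.65 ± 0.34 and 1.11 ± 0.45. Its sham levels stayed within 2.32 to 3.34 FPKM, and its 5/6Nx level was highest at week 5.

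Other regulators called at week 5 were Cks2, Cdkn3 and Cdca3. Cks2, a small subunit bound to this kinase, had 3.49, 4.32, 4.13 and 3.21 FPKM in sham and 4.92, 6.34, 12.1 and 13.4 FPKM in 5/6Nx. Its log2 fold change was larger at week 7 (2.06 ± 0.63) than at week 5 (1.56 ± 0.40), yet q in the authors' deposited tables was 0.0588 and 0.0200. Cdkn3, a phosphatase that acts on cyclin-dependent kinases, had 1.14, 1.98, 2.37 and 1.70 FPKM in sham and 2.69, 3.29, 7.39 and 3.63 FPKM in 5/6Nx (1.64 ± 0.40 at week 5). It had the largest log2 fold change of this role at week 2 (1.24 ± 0.48). Cdca3, a factor in the breakdown of a mitotic inhibitor kinase, had 1.02, 0.917, 1.13 and 0.898 FPKM in sham and 1.58, 2.71, 4.14 and 1.49 FPKM in 5/6Nx. Its value at week 5 was 1.88 ± 0.48 and at week 4 1.57 ± 0.44, where q in the authors' deposited table was 0.0805.

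The cyclins had fold changes above 0 at all 4 weeks and were not called. Ccnb1, the main partner of Cdk1, stood at 0.39 ± 0.41, 0.83 ± 0.33, 1.38 ± 0.39 and 1.55 ± 0.55. Its q in the authors' deposited table was 0.0697 at week 5. The values of Ccna2 and Ccnb2 ran from 0.66 to 1.65 and from 0.85 to 1.79. Aurkb, the kinase of the chromosomal passenger complex, was not called, with values of 0.26 ± 0.39, 0.31 ± 0.31, 1.26 ± 0.40 and 2.01 ± 0.61 and q of 0.0521 at week 7 in the authors' deposited table. Aurka, its relative at the spindle poles, had the smallest values of the role, from -0.08 at week 4 to 0.66 at week 5. Pbk, Melk and Plk1, mitotic kinases, were not called, and Melk and Plk1 were not tested at week 7.

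Spindle motors and microtubule proteins followed a like course, with medians of 0.53, 0.79, 1.37 and 1.02. Called were 0 of 8, 0 of 9, 3 of 8 and 2 of 9, beside the same shares of all loci. Ckap2 (XLOC_008574, rn5 chromosome 16, 74383676 to 74410206), a protein of spindle microtubules, had 1.36, 1.39, 1.04 and 1.12 FPKM in sham and 2.07, 2.60, 2.75 and 3.38 FPKM in 5/6Nx. It rose at weeks 5 (1.41 ± 0.35) and 7 (1.59 ± 0.48), with q of 0.0114 and 0.0467 in the authors' deposited tables. Kif22, a kinesin that moves chromosome arms, had 1.52, 2.16, 1.85 and 0.902 FPKM in sham and 2.64, 3.75, 5.11 and 1.82 FPKM in 5/6Nx, and rose at week 5 (1.46 ± 0.36). Tpx2, a spindle assembly factor, had 1.15, 1.37, 0.924 and 1.51 FPKM in sham and 1.69, 2.41, 2.34 and 3.18 FPKM in 5/6Nx, and rose at week 5 (1.34 ± 0.35). Kif20b, a kinesin of late mitosis, rose at week 7 from 0.276 to 1.28 FPKM (2.21 ± 0.60), the largest fold change of the tested genes at that week. At week 4 it went from 0.259 to 0.682 FPKM (1.40 ± 0.38), with q of 0.0522 in the authors' deposited table, and it was not tested at weeks 2 and 5.

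Exceptions in this role were Kif2c and Stmn1. Kif2c, which shortens microtubules, stood at 0.17 ± 0.63, 0.46 ± 0.43, 1.71 ± 0.57 and -0.70 ± 0.65, the only spindle motor below sham at week 7. Stmn1, which encodes the tubulin-binding stathmin, had by far the highest level of the spindle genes, 50.2 to 65.2 FPKM in sham, and values from -0.14 to 0.33. The kinesin gene Kif11, whose motor separates the spindle poles, was not called, with values of 0.60 ± 0.34, 0.96 ± 0.28, 1.54 ± 0.44 and 1.20 ± 0.43. Nusap1 and Hmmr, also on spindle microtubules, ran from 0.50 to 0.88 and from 0.09 to 1.10.

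Kinetochore and checkpoint genes join chromosomes to the spindle and hold back separation until all are attached. Their medians were 0.68, 0.98, 1.33 and 0.70, and 1 call was made, for Cenpf at week 4. Cenpf, a large protein of the outer kinetochore, rose there from 0.396 to 0.865 FPKM (1.13 ± 0.28, with q of 0.0185 in the authors' deposited table). It went from 0.665 to 1.34 FPKM at week 7 (1.01 ± 0.38), not called, and was not tested at weeks 2 and 5. Spc25, of the complex that grips microtubules, had the largest fold changes of all the genes at weeks 2 (2.20 ± 1.37) and 5 (2.80 ± 1.23), with wide errors and no call. Its sham levels were 0.260, 0.603, 0.328 and 1.08 FPKM, and its 5/6Nx levels 1.19, 1.25, 2.29 and 1.61 FPKM. Its partners Ndc80 and Nuf2 ran from 0.52 to 1.54 and from 0.54 to 1.21. Birc5, which encodes survivin, had 0.99 ± 0.56, 1.03 ± 0.49 and 1.33 ± 0.47 at weeks 2, 4 and 5.

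Mitotic exit is driven by the ubiquitin ligase APC/C, which Cdc20 activates and Ube2c supplies with ubiquitin. Both were called at week 5. Cdc20 had 1.53, 1.81 and 2.29 FPKM in sham and 2.64, 3.35 and 5.45 FPKM in 5/6Nx at weeks 2, 4 and 5, and rose at week 5 (1.25 ± 0.31). Ube2c had 1.86, 2.53, 3.06 and 1.54 FPKM in sham and 3.16, 4.65, 9.46 and 2.79 FPKM in 5/6Nx, and rose at week 5 (1.63 ± 0.40). Both had sham levels that were themselves highest at week 5, unlike Prc1, Top2a and Kif23.

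**Figure D3:**
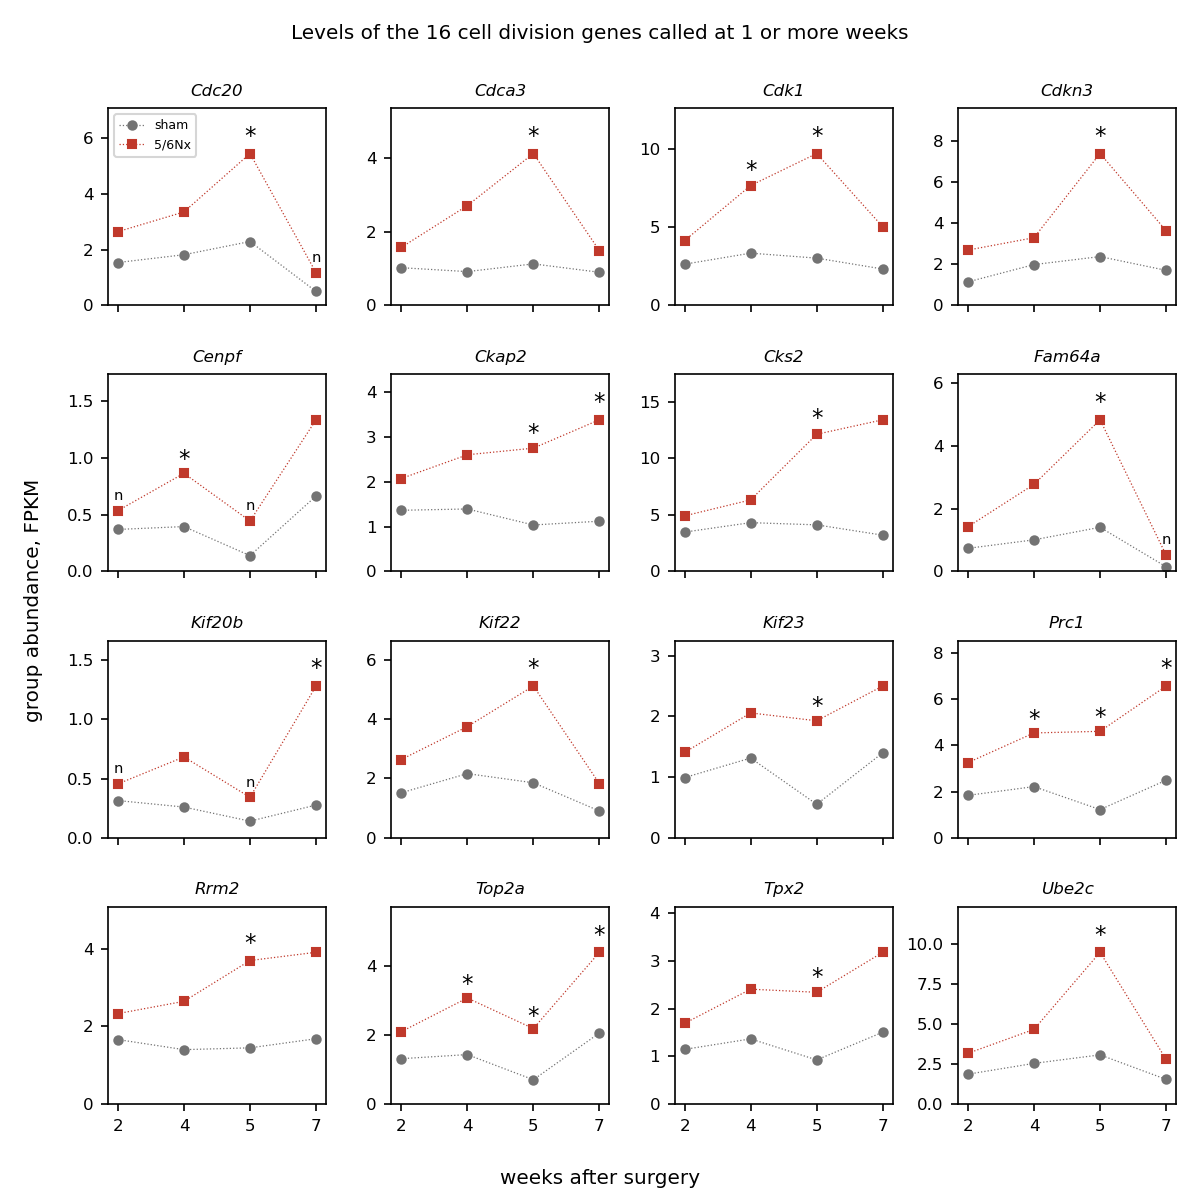
Group abundance (FPKM, y axis, a scale of its own for each gene) of the 16 cell division genes called at 1 or more weeks, in sham (circles) and 5/6Nx (squares) against weeks after surgery; each point is the authors' value for a group of 2 pools, stars mark calls, n marks values that were not tested, and dotted lines join different animals. The 5/6Nx point lies above sham in every panel, and in Prc1, Top2a, Kif23 and Tpx2, among others, the sham point is lowest at week 5, while the tables of the weeks may differ in scale.

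Replication genes had smaller median differences than the mitotic roles. Medians of the genes of licensing and the fork were 0.17, 0.10, 0.34 and -0.32, over 5, 5, 5 and 4 tested genes. None was called at any week. These medians include Mcm6, whose locus is shared with Dars and ran from -0.09 to 0.13. Over the weeks tested, Mcm2 ran from -0.57 to 0.34 and Mcm3 from 0.17 to 0.62. Mcm2, Mcm3, Mcm5 and Mcm6 are subunits of the helicase that opens DNA, and Pcna is the clamp that holds the polymerase. Mcm5, whose promoter is shown above, stood at 2.34, 3.05, 2.43 and 1.38 FPKM in sham and 3.16, 3.45, 3.86 and 0.764 FPKM in 5/6Nx. Its log2 fold changes were 0.44 ± 0.33, 0.18 ± 0.25, 0.67 ± 0.25 and -0.85 ± 0.51, the lowest of all the genes at week 7. Pcna, abundant at 44.9 to 47.2 FPKM in sham, stood between 0.01 ± 0.19 and 0.41 ± 0.28. Among the genes of DNA precursor supply Rrm2, a subunit of ribonucleotide reductase, was called at week 5, from 1.45 to 3.70 FPKM (1.35 ± 0.33). At the other weeks Rrm2 went from 1.66 to 2.33, 1.40 to 2.65 and 1.68 to 3.91 FPKM. Tyms and Tk1, enzymes of thymidine nucleotide synthesis, stood between -0.09 and 0.41. Tyms has 2 loci at the same place, so its reads may be split. XLOC_021663 stood for it at week 5 and XLOC_021998 at weeks 2, 4 and 7, so its values mix both loci. The test between weeks below used XLOC_021998 alone.

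**Figure D4:**
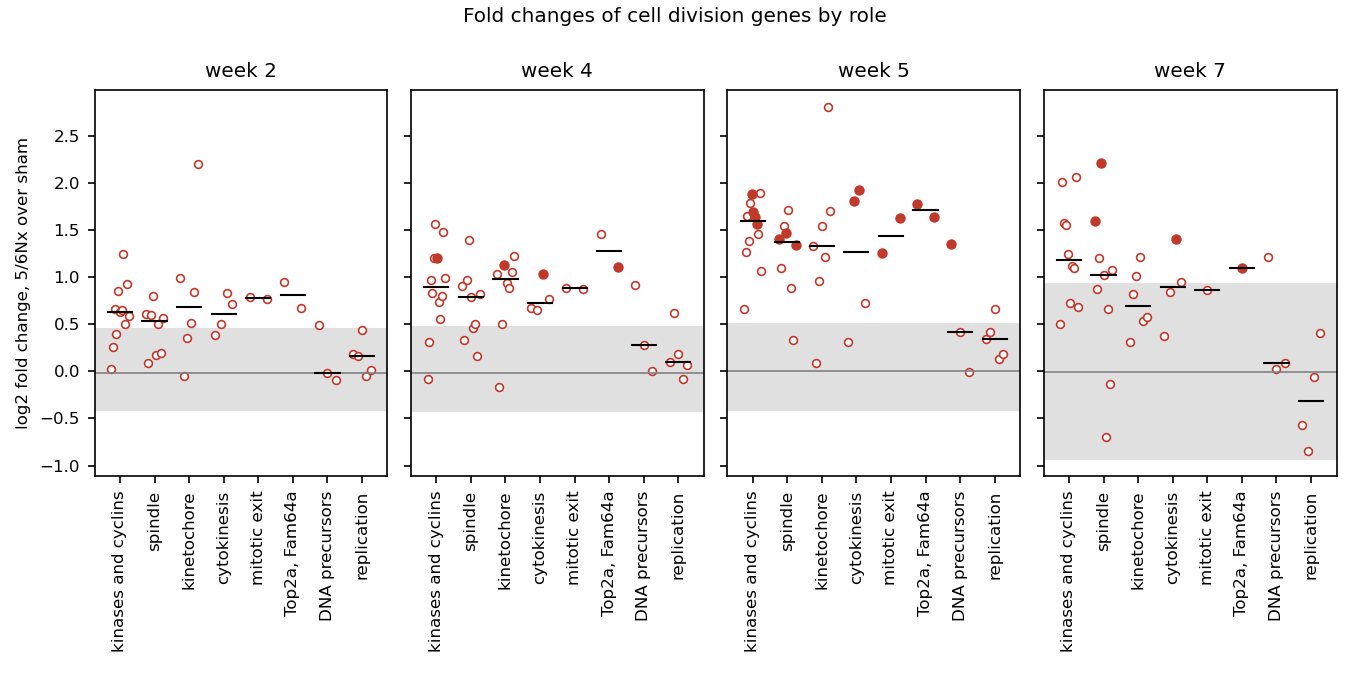
Log2 fold changes (5/6Nx over sham, y axis) of the tested cell division genes, grouped by role on the x axis, in 1 panel per week; filled points were called, open points were not, bars are role medians and the grey band runs from percentile 5 to percentile 95 of all tested loci. At week 5 most mitotic genes lie above the band, whose upper edge is 0.50, and 4 of the 5 replication genes lie inside it, with Mcm5 (0.67) above; at week 7 the band reaches from -0.93 to 0.93.

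The order of the genes by fold change was similar at weeks 2, 4 and 5. Across the genes tested in both weeks, Pearson's r of the log2 fold changes was 0.71 between weeks 2 and 4 (Spearman's rho 0.82, 41 genes), 0.79 between weeks 2 and 5 (0.73, 41 genes) and 0.79 between weeks 4 and 5 (0.78, 43 genes). With week 7 it was 0.32, 0.55 and 0.51 (0.48, 0.59 and 0.52, over 36, 38 and 36 genes). These correlations describe the genes, which share the same pools within a week and are not independent replicates. All tested loci also spread more widely at week 7. Their percentiles 5 and 95 were -0.93 and 0.93 there, against -0.41 and 0.50 at week 5. The part of this spread in the weaker correlations with week 7 was not tested. Of the 36 genes tested at every week, 31 lay above sham at weeks 2, 4 and 5 and 27 at all 4, or 4 at all 4 if week 7 is turned, and 23 had log2 fold changes that increased from week 2 through week 4 to week 5. The largest was at week 5 for 27, at week 7 for 8, at week 4 for 1 and at week 2 for 0. With week 7 turned these counts were 31, 2, 3 and 0, and among weeks 2, 4 and 5 alone the largest was at week 5 for 33.

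A test of the difference between weeks (Cochran's Q on the 4 log2 fold changes) did not pass for any of the 36 genes after Benjamini-Hochberg adjustment, while 24 of 12120 loci passed. This rests on the week 7 column names: with week 7 turned, 13 of the 36 genes and 285 loci passed, and without week 7, 0 of 41 genes did. With an unadjusted p under 0.05 were 3 of the 36: Aurkb (0.0234), Kif2c (0.0409) and Cks2 (0.0448), beside 3.55% of all loci. Judged by p alone, the derived standard error is an upper bound for genes at the smallest p of the authors' deposited tables, 5e-05. This limits the test for the genes called most clearly. Under the column names, the larger number of calls at week 5 is therefore not shown to be a larger response.

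Levels set between weeks come from separate tables, and whether these share 1 scale is not stated in the labels. From week 4 to week 5 the median log2 ratio of sham levels was -0.33 over 35 of these genes, 25 of them lower, against -0.01 over all loci. The 5/6Nx levels had a median of 0.26 over the same step, with 24 genes higher, against 0.03. From week 2 to week 4 sham levels were higher for 33 of 35 genes (median 0.18) and 5/6Nx levels for 32 (median 0.46). Both the sham and the 5/6Nx side thus moved with the fold changes at week 5, and no test was run on these ratios.

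Other cell division genes were taken from 8 lists. Of 153 symbols 125 had a locus, and 95, 105, 102 and 93 were tested at the 4 weeks. Called were 0, 1, 1 and 0 genes, all higher, beside 0%, 0.177%, 0.396% and 1.43% of all tested loci called higher. Aspm, a spindle pole protein, rose at week 4 from 0.325 to 0.755 FPKM (1.21 ± 0.30), and Cdkn1a, which encodes the cell cycle inhibitor p21, rose at week 5 from 25.4 to 49.5 FPKM (0.96 ± 0.24). Cdkn1a stood at 0.04 ± 0.18, -0.12 ± 0.16 and 0.73 ± 0.28 at weeks 2, 4 and 7. Spindle, centrosome and cytokinesis genes had median log2 fold changes of 0.84, 0.57, 1.12 and 0.89, beside 0.52, 0.82, 1.35 and 0.87 for the genes described above. Of those tested, 6 of 6, 9 of 9, 8 of 8 and 7 of 7 lay above sham. Centromere and kinetochore genes had medians of 0.33, 0.22, 0.77 and 0.44.

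Replication licensing and fork genes had medians of 0.00, 0.10, 0.12 and 0.23. Cyclins, kinases and E2F factors of the entry into replication had medians of -0.03, 0.07, 0.10 and 0.05. Mitotic transcription and entry factors had medians of -0.05, 0.16, -0.01 and 0.14. Genes of chromosome condensation and cohesion had medians of 0.07, 0.13, 0.15 and 0.27. The medians of the subunits and factors of the APC/C lay between -0.04 and 0.05. Medians for CDK inhibitors and p53 targets were -0.04, -0.09, -0.02 and 0.56, with 11 of 12 above sham at week 7. Foxm1, a transcription factor that switches on mitotic genes, stood at 0.03 ± 0.36, 1.08 ± 0.33 and 0.81 ± 0.32 at weeks 2, 4 and 5, not called, and was not tested at week 7. Its level was 0.584 FPKM in sham and 1.23 FPKM in 5/6Nx at week 4. Mybl2, a partner of such complexes, was not tested at any week. E2f1, an activator of replication genes, stood at -0.20 ± 0.37, 0.45 ± 0.30 and 0.61 ± 0.31. Ccnd1, the cyclin of the first growth phase, stood at 0.33 ± 0.18, 0.45 ± 0.15, 0.38 ± 0.17 and 0.29 ± 0.27.

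Markers of the cell types of the ventricle differed from sham to different degrees. Of all tested loci, 0%, 0.177%, 0.396% and 1.43% were called higher at the 4 weeks, and 0%, 0.156%, 0.154% and 0.315% lower. Macrophage and monocyte markers lay above sham for 12, 11, 12 and 12 of 12 genes, with medians of 0.39, 0.30, 0.36 and 1.17 and calls in 0, 0, 1 and 6. Their summed level was 516, 500, 405 and 267 FPKM in sham and 687, 599, 549 and 934 FPKM in 5/6Nx. Fibroblast markers lay above sham for 8, 10, 8 and 8 of 11 genes, with medians of 0.24, 0.36, 0.46 and 0.48 and 0, 3, 2 and 1 calls. The summed level of the fibroblast markers was 1592 to 1952 FPKM in sham and 2022 to 2769 FPKM in 5/6Nx. The medians of both marker lists at week 5 were smaller than the median of 1.35 of the division genes. The markers of these lists called at that week were Postn (1.32 ± 0.33) and Thy1 (1.29 ± 0.32) of fibroblasts and Lyz2 (0.67 ± 0.18) of macrophages. Of the 11 fibroblast markers, 3 lay below sham at that week. At week 7 the macrophage median was larger than that of the division genes.

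Endothelial markers had medians of 0.06, 0.19, 0.11 and 0.06 with 0 calls. Red cell markers had 0.29, 0.27, 1.01 and 0.83, with 3 called higher at week 5 and 2 at week 7, and their summed level at week 5 was 6392 FPKM in sham and 12869 FPKM in 5/6Nx. Lymphocyte markers had medians between -0.29 and 0.25 with 0 calls, and neutrophil and mast cell markers between -0.40 and 0.43 with 1 call, S100a9 at week 5. Smooth muscle and pericyte markers had medians between 0.00 and 0.16 with 0 calls. Cardiomyocyte markers, at 45930 to 119690 FPKM summed the most abundant list, lay below sham for 11, 11, 8 and 10 of 11 genes, with medians of -0.15, -0.19, -0.07 and -0.45 and 0 calls. Adipocyte markers had -0.31, -1.33, -2.33 and -1.06, with 5 called lower at each of weeks 4 and 5. The part of these cell types in the division gene result was not tested.

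**Figure D5:**
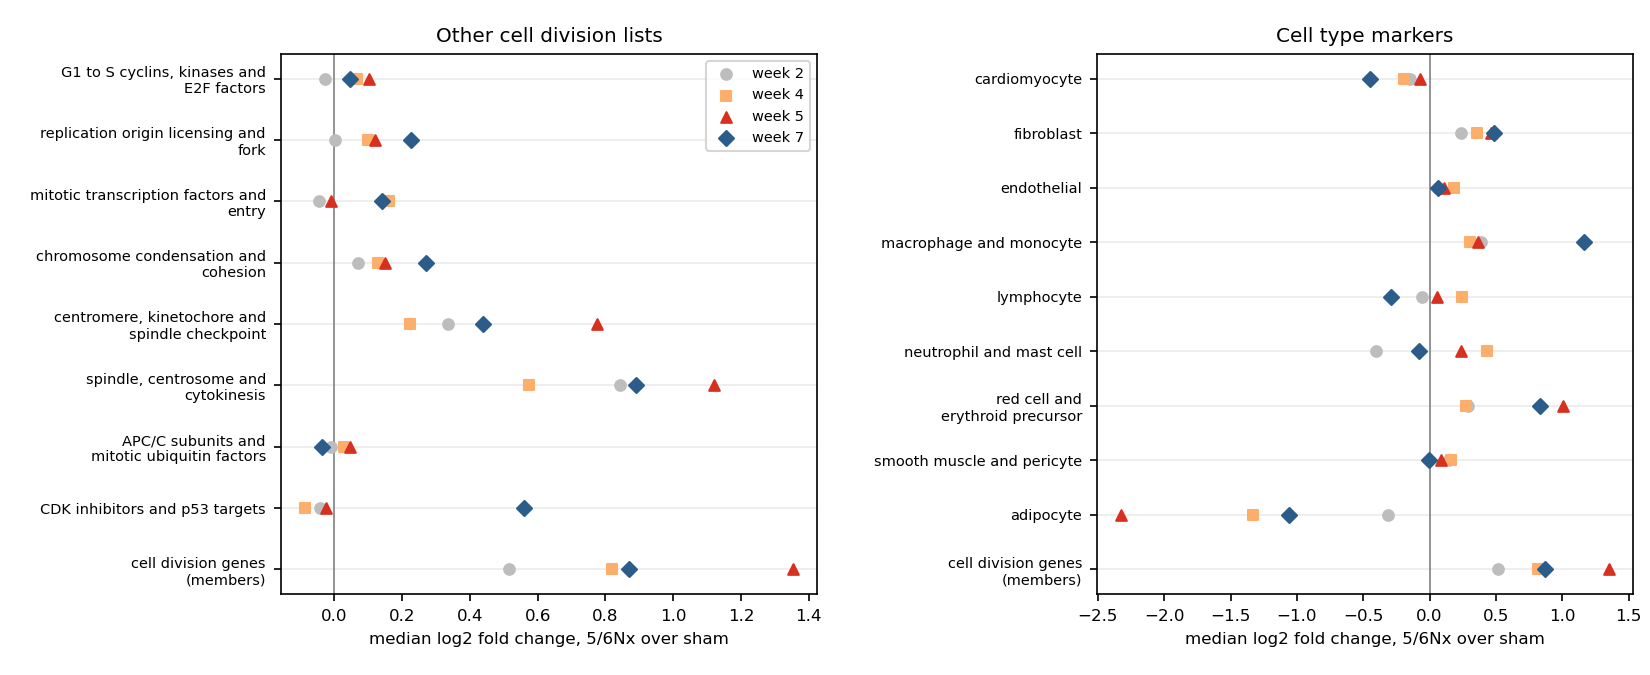
Median log2 fold change (5/6Nx over sham, x axis) of the other cell division lists (left) and the cell type marker lists (right) at the 4 weeks, with the cell division genes in the bottom row of each panel. The division genes lie furthest right at week 5 (1.35), the spindle list comes nearest to them on the left (1.12), and the macrophage markers exceed them at week 7 (1.17 against 0.87); week 7 follows the column names.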

How the data were processed

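Left ventricle RNA of 16 pooled libraries, 2 per surgery and week, was sequenced in pairs on an Illumina HiSeq after a TruSeq Stranded Total RNA kit, per the labels' protocols. The submitters' processing notes name the build rn5, Cuffdiff, Cufflinks 2.0.10, TopHat2 2.0.10 and cutadapt, and give no roles. The authors deposited 1 table per week with 1 abundance per group and locus, taken as FPKM because the headers do not name the unit, with a test statistic (a score), a p-value and a q-value. A further deposited table gives the count of reads and the percent of bases at quality 30 and of reads mapped per library. Replicates were pools, and p-values measure only the spread between them as the authors' test modelled it. As the tables hold no value per library, no model was refitted and the authors' calls stood.

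Log2 fold changes were computed from the FPKM without a pseudocount. The deposited fold-change column was not used. Standard errors are the size of the log2 fold change divided by the normal deviate that matches the authors' two-sided p. At the smallest deposited p, 5e-05, they are upper bounds as far as p alone sets them, at 0.247 of the log2 fold change. The authors' statistic can give wider errors. For the weighted mean of the 4 weeks, the error from it was 0.180 in place of 0.150 for Top2a. For Kif23 it was 0.233 in place of 0.167. At week 7, 313 rows that repeat a locus under several symbols were joined. Weeks were compared by Cochran's Q over all loci tested in the 4 tables, with Benjamini-Hochberg adjustment, in Python 3.11.15 with pandas 2.3.3, NumPy 2.4.6 and SciPy 1.17.1, tested on simulated data. Figures were drawn with Matplotlib 3.10.9. Motifs were searched on both strands of 27457 RefSeq promoters (GRCr8), and the chromosome of each gene was compared by symbol with the RefSeq gene table of that build.

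The genes and lists were chosen with earlier results of these data known. Values were given for every gene called at any week, for the largest and smallest fold change of each role (apart from the smallest of the kinetochore role, not reported here), for every called gene of the other lists and for Foxm1, Mybl2, E2f1, Ccnd1 and Cdkn1a. The other genes named were chosen after their values were seen. Alternatives were other q limits, a filter on mean FPKM, pseudocounts, summed loci, centring, the sign of the week 7 statistic and, chosen after seeing the data, leaving out genes with doubtful loci, a range of mean FPKM, leaving out week 7 and turning it.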

Additional observations from a re-analysis of the deposited data

How the results depend on the processing

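Under the alternatives run, 54 values were labelled unchanged, 7 moved and 2 reversed. At week 2, with 0 genes called, a stricter limit or fewer genes could only return 0 calls. Every called gene was at least 2-fold higher, so a 2-fold limit left the counts of calls as they were. These settings are among the 54 values. An unchanged median kept its direction and stayed within the genes' median standard error of that week. An unchanged count of calls was equal to the main count or within a set ratio of it, with no spread used. At a deposited q of 0.10, 7, 19 and 6 genes were called at weeks 4, 5 and 7 in place of 4, 14 and 4. Of these only the count at week 4 was labelled moved. At a deposited q of 0.01, 0 were called at weeks 4, 5 and 7 in place of 4, 14 and 4, because the smallest q of these genes was 0.0185, 0.0114 and 0.0140. On the log2(FPKM + 1) scale the median log2 fold change was 0.32, 0.48, 0.83 and 0.54 at weeks 2, 4, 5 and 7 in place of 0.52, 0.82, 1.35 and 0.87, a scale that shrinks fold changes of genes near 1 FPKM. By the sign of the week 7 test statistic its calls became -4 (4 lower) and its median -0.87. Leaving out the genes with doubtful loci (the 2 with shared loci, or Ccnb2 and Racgap1) left 4, 14 and 4 calls at weeks 4, 5 and 7. None of these genes was called at any week, so those counts could not change, and they are among the 54 values. Without week 7, 15 genes were called at 1 or more weeks in place of 16, Kif20b being the difference. These last settings were chosen after seeing the data. For single genes 460 values stayed within their standard error and 41 moved, all on the log2(FPKM + 1) scale. The difference between weeks passed for 0 genes under the column names (as derived, with errors from the test statistic, at an FPKM of at least 1 and without week 7) and for 13 with week 7 turned, also chosen after seeing the data. No paired analysis was possible because the tables hold no value per library, and for the same reason no library was left out.

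At weeks 2, 4, 5 and 7 the authors left 4, 0, 2 and 7 of the 45 genes untested. The part of depth in this was not tested; 1 of the week 7 libraries held 23.6 M reads.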
